A study of Mus musculus with 6 samples.

Results

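From the 43346 genes in the deposited count table, 10 of the antioxidant response governed by the transcription factor Nrf2 were chosen. These 10 are a part of that response, and they are described here in radiated and non-radiated mouse femur. They were taken by gene symbol: Nfe2l2, Keap1, Gclc, Gclm, Slc7a11, Gsr, Gpx3, Txnrd1, Srxn1 and Nqo1. The choice went by symbol and not by a cut on measured values, but earlier results of these data were known when it was made. All 10 passed the filter on low counts. The mice were of the C57BL/6 strain and 4 months old. In the radiated group the right femur had received 24 Gy of X-rays in a single exposure, at 6.6 Gy per minute, aimed by imaging at 5 mm of the distal metaphysis, the marrow-rich end of the shaft beside the knee. The non-radiated group was the left femur, which lay outside the beam in animals that were themselves irradiated on the other side. Bone with its marrow was collected at day 21, before the bone loss that the study saw later, and gave 3 libraries per group.

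Nrf2, the product of Nfe2l2, is a short-lived protein. In unstressed cells Keap1 holds it in the cytoplasm and hands it to a Cul3 ubiquitin ligase for destruction. Oxidants or electrophiles modify cysteines of Keap1, Nrf2 then accumulates, pairs with a small Maf protein in the nucleus and binds antioxidant response elements near genes for glutathione synthesis, thioredoxin recycling and quinone detoxification. Because this switch works on the protein, the mRNA level of Nfe2l2 does not measure it, while the mRNA levels of the targets are its usual readout.

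The core letters of the antioxidant response element, TGACNNNGC, were searched on both strands in RefSeq promoter windows (build GRCm38.p6), which run from 250 bases before to 50 bases after a gene's start. Windows were found for 8 of the 10 genes, not for Gclc and Gsr. The letters occurred in those of 4 genes (50% of the 8), against 14% of the 27025 genes in the promoter table. The stretches around the matches are printed because the family is usually recognised by antioxidant response elements. Whether these matches work as such elements was not tested. The 9 letters of the match are in capitals, and each sequence runs 5′ to 3′ along the strand of its gene, so a match on the opposite strand reads GCNNNGTCA.
Nfe2l2, chr2:75704875-75704913, minus strand: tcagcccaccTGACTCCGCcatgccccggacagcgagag
Gclm, chr3:122245403-122245451, plus strand: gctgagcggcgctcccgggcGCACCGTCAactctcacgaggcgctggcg
Txnrd1, chr10:82859094-82859142, plus strand: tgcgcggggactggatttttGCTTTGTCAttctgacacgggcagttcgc
Srxn1, chr2:152105532-152105573, plus strand: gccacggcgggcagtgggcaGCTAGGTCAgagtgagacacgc

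The match in Nfe2l2 lay 232 bases before the start, that in Gclm 126 and that in Txnrd1 84 bases before it, and that in Srxn1 28 bases after it. None of the 4 overlapped the letters TGANTCA of an AP-1 site. Those letters stood elsewhere in the window of Srxn1 and in no other of the 8 genes (12.5%, beside 8.97% of genes in the promoter table). They read the same on both strands, so the 4 matches found in Srxn1 count each site once per strand. For Txnrd1, which has 3 windows, the match stood in the window at the start that the count table uses. The windows of Keap1, Slc7a11, Nqo1 and Gpx3 did not hold the letters. A match describes the letters only, and elements farther from the start lie outside these windows.

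The window of Gpx3 is printed because this gene had the largest fold change of the 10 and no match to the core letters. It covers chr11:54902604-54902903 on the plus strand, with 56.3% G and C. RefSeq places the start inside the gene as the count table annotates it, so the window does not reach the start given in that table.
Gpx3: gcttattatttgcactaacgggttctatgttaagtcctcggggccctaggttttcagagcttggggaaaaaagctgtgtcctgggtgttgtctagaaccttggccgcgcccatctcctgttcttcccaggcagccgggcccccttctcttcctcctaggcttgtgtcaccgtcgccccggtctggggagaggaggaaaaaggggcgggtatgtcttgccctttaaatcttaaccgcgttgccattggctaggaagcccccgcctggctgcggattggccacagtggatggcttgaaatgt

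The libraries held 34034251 to 48708383 gene counts. The row AY036118 took 32.9% of those in non-radiated library 2, against 0.321% to 5.61% in the others. A list of 20 skeletal muscle markers made up 0.0507% to 0.0661% of counts in the non-radiated libraries and 0.218%, 0.701% and 0.0696% in radiated libraries 1, 2 and 3. This is the muscle share used below, and it is not the whole muscle RNA. Levels below are gene counts relative to library size (CPM) after TMM scaling, a trimmed mean that sets aside extreme genes, so fold changes are relative to the bulk of genes. A gene is said to rise or fall where its adjusted p in edgeR's quasi-likelihood test, by Benjamini-Hochberg over the 18757 genes tested, was under 0.05.

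The 10 genes did not move together after radiation. Gpx3 rose, Gsr fell, and the other 8 did not pass the test. These 2 of 10 compare with 7.80% of all genes tested that passed it, so the count alone does not set the family apart. The median log2 fold change of the 10 was -0.09, beside 0.00 over all genes tested, and it was 0.11 when libraries were scaled by their totals alone, a scaling that shifted the median of all genes to 0.19. For 5 of the 10 (Gpx3, Gsr, Gclm, Nfe2l2 and Txnrd1) every library of one group lay on the same side of the other group, as for 25.9% of all genes tested.

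**Figure D1:**
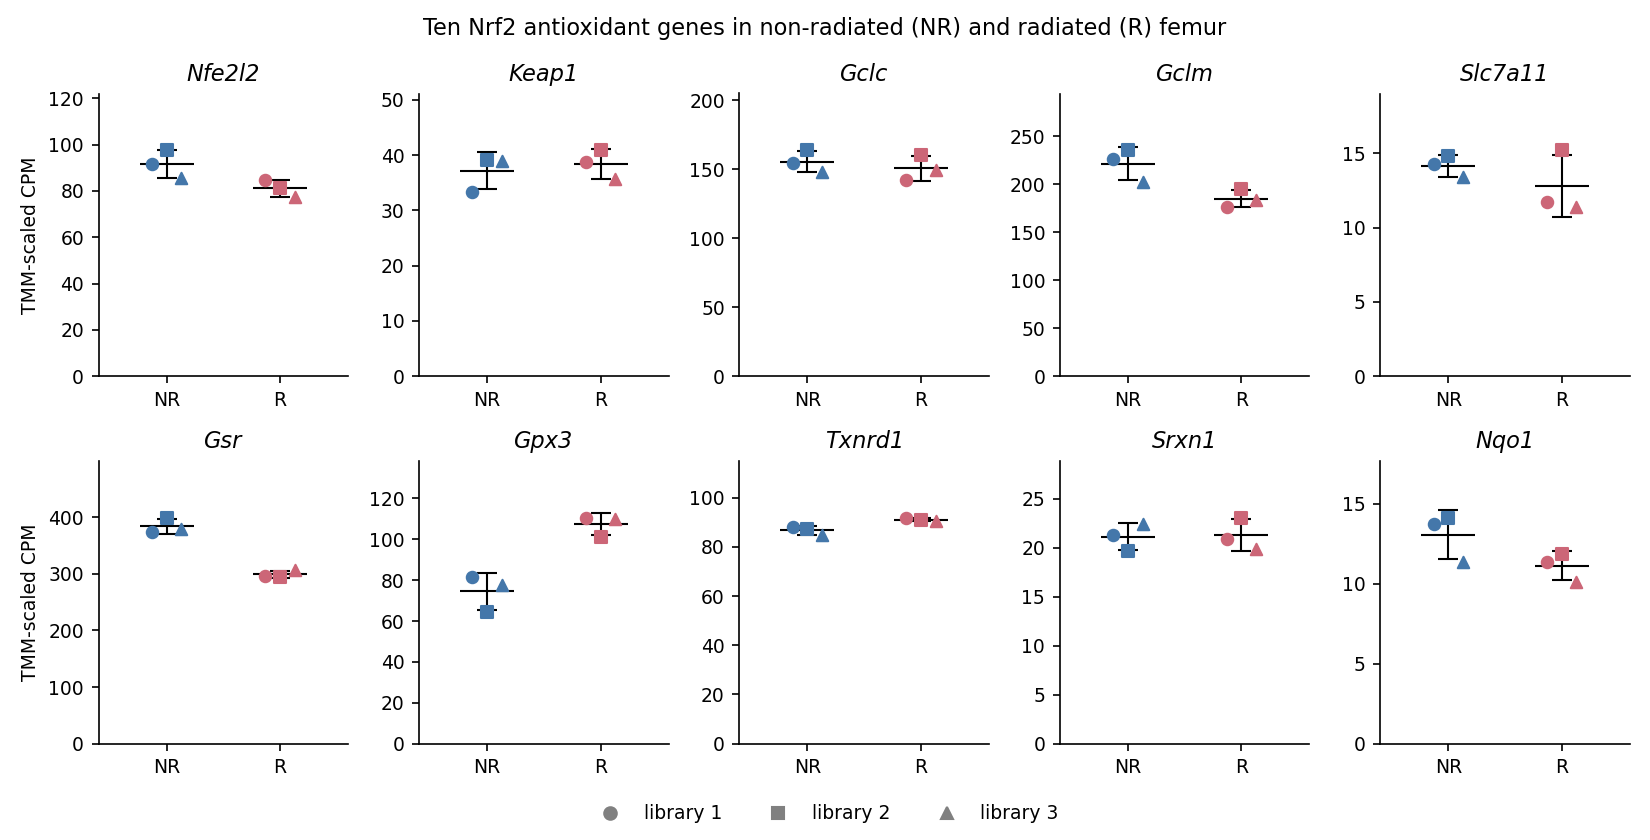
TMM-scaled CPM (vertical axis, from 0) of the 10 genes in non-radiated (NR, blue) and radiated (R, red) femur, 1 point per library with its shape giving the library number; horizontal bars are means and error bars 1 SD (n = 3 each). The 3 radiated libraries lie above all non-radiated ones for Gpx3 and below them for Gsr.

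At the head of the pathway stand the factor and its inhibitor. Nfe2l2 (ENSMUSG00000015839, mm10 chromosome 2, 75675513 to 75704641) was at 91.6, 97.7 and 85.8 CPM in non-radiated libraries 1, 2 and 3 and at 84.9, 81.1 and 77.5 CPM in radiated libraries 1, 2 and 3. The highest radiated library lay just under the lowest non-radiated one. The log2 fold change was -0.18 (SE 0.06), which did not pass the test (edgeR adjusted p 0.138), and over the alternatives its adjusted p ran from 0.0592 to 0.956 with no call.

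Keap1 (ENSMUSG00000003308, chromosome 9, 21229730 to 21239332), the adaptor that targets Nrf2 for degradation, was at 33.3, 39.2 and 39.0 CPM in the non-radiated and 38.8, 40.9 and 35.6 CPM in the radiated libraries. The groups overlapped, and the 95% interval of the log2 fold change ran from -0.14 to 0.24 (edgeR adjusted p 0.798). The ratio of Nfe2l2 to Keap1 per kilobase was taken within each library, so that library scaling cancels. It was 3.05 ± 0.338 in the non-radiated and 2.60 ± 0.143 in the radiated group (mean ± SD, n = 3 each). It was 2.70 in non-radiated library 3, the lowest of its group, and 2.69 in radiated library 1, the highest of the other. The two-sided exact permutation p was 0.1 (0.1 when adjusted over the 2 ratios tested), the smallest that 3 against 3 allows. This pair of genes was chosen after its values were seen, and the adjustment does not cover that choice, so the p is descriptive.

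Glutathione, the main thiol of the cell, is made from glutamate, cysteine and glycine, and the first step is catalysed by glutamate-cysteine ligase. Its catalytic subunit, Gclc (ENSMUSG00000032350, chromosome 9, 77754535 to 77794485), was at 155, 164 and 148 CPM in the non-radiated and 142, 160 and 150 CPM in the radiated libraries. The groups overlapped throughout, with a 95% interval of the log2 fold change from -0.19 to 0.10 (edgeR adjusted p 0.742).

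Its modifier subunit, Gclm (ENSMUSG00000028124, chromosome 3, 122245557 to 122269984), which makes the enzyme more efficient, was at 227, 236 and 202 CPM in the non-radiated and 176, 194 and 184 CPM in the radiated libraries. All radiated libraries were below all non-radiated ones. The log2 fold change was -0.26 (SE 0.07), just outside the threshold (edgeR adjusted p 0.0548). With the replicate number as a block it passed (adjusted p 0.0456), which made 3 of the 10 genes called where 8.90% of all genes tested were. It passed in 5 of 15 alternatives in all, among them the fit without non-radiated library 3 (-0.33, adjusted p 0.0201), while its adjusted p ranged from 0.00588 to 0.898. The promoter match of this gene is printed above.

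The 2 subunits could be set against each other within each library, which removes the scaling. The ratio of Gclm to Gclc per kilobase was 0.906, 0.887 and 0.842 in the non-radiated and 0.765, 0.750 and 0.758 in the radiated libraries. The radiated values lay close together and below all non-radiated ones, with a log2 difference of -0.21 and a two-sided exact permutation p of 0.1 (0.1 when adjusted over the 2 ratios). Neither ratio passed a threshold of 0.05, which this design cannot reach, and the pairs were chosen after their values were seen, so the ratios are given as a description.

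Slc7a11 (ENSMUSG00000027737, chromosome 3, 49892526 to 50443614) encodes the cystine importer that supplies cysteine for this synthesis. It was at 14.3, 14.9 and 13.4 CPM in the non-radiated and 11.8, 15.2 and 11.4 CPM in the radiated libraries. Radiated library 2 held the highest value of all 6 and the other radiated libraries the lowest, so the groups overlapped. The 95% interval of the log2 fold change ran from -0.42 to 0.13 (edgeR adjusted p 0.552).

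Gsr, glutathione reductase, returns oxidised glutathione to its reduced form with NADPH (ENSMUSG00000031584, chromosome 8, 33652523 to 33698163). It was at 373, 399 and 378 CPM in the non-radiated and 296, 295 and 306 CPM in the radiated libraries. The groups stood clear of each other, with 384 ± 13.9 CPM against 299 ± 6.20 CPM (mean ± SD, n = 3 each). Gsr fell to 0.779 times its non-radiated level, a log2 fold change of -0.36 with an SE of 0.06 (edgeR adjusted p 0.00494). Within each number, 1 to 3, the difference was -0.33, -0.44 and -0.31. The call held in 13 of 15 alternatives, among them all 6 fits without 1 library. Gsr did not pass under library totals alone (log2 fold change -0.16, adjusted p 0.765) and with the muscle share as a covariate (-0.33, adjusted p 0.0674).

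Gpx3 (ENSMUSG00000018339, chromosome 11, 54902453 to 54910377) encodes the secreted glutathione peroxidase of plasma, a selenoprotein that reduces peroxides outside cells. It was at 81.5, 64.4 and 77.4 CPM in the non-radiated and 111, 101 and 110 CPM in the radiated libraries. Every radiated library was above every non-radiated one, and non-radiated library 2 was the lowest. The means were 74.4 ± 8.94 CPM and 107 ± 5.28 CPM (mean ± SD, n = 3 each). Gpx3 rose 1.44-fold, which is 0.53 in log2 with an SE of 0.09 (edgeR adjusted p 0.00604), and within the numbers 1 to 3 by 0.44, 0.65 and 0.51. It passed in each of the 15 alternatives, with log2 fold changes from 0.42, without non-radiated library 2, to 0.70, under library totals alone.

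Txnrd1, Srxn1 and Nqo1 are genes on the thioredoxin and quinone side of the response. Txnrd1 (ENSMUSG00000020250, chromosome 10, 82859206 to 82897724), the cytosolic thioredoxin reductase, was at 88.2, 87.4 and 84.7 CPM in the non-radiated and 92.0, 90.8 and 90.6 CPM in the radiated libraries. The groups did not overlap, but the difference was small, with a log2 fold change of 0.07 (95% interval -0.03 to 0.18, edgeR adjusted p 0.441).

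Srxn1 (ENSMUSG00000032802, chromosome 2, 152105516 to 152111376), sulfiredoxin, repairs over-oxidised peroxiredoxins. It was at 21.3, 19.7 and 22.4 CPM in the non-radiated and 20.9, 23.1 and 19.9 CPM in the radiated libraries. The groups were interleaved, with a 95% interval of the log2 fold change from -0.18 to 0.20 (edgeR adjusted p 0.959).

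Nqo1 (ENSMUSG00000003849, chromosome 8, 107388225 to 107403206), a quinone reductase and a widely used reporter of Nrf2 activity, was at 13.7, 14.1 and 11.3 CPM in the non-radiated and 11.4, 11.9 and 10.1 CPM in the radiated libraries. Non-radiated library 3 lay among the radiated ones. The log2 fold change was -0.23 (95% interval -0.48 to 0.02, edgeR adjusted p 0.278). A rise of the size seen for Gpx3 lay outside the 95% intervals of the 8 genes that did not pass, whose upper ends reached at most 0.24.

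**Figure D2:**
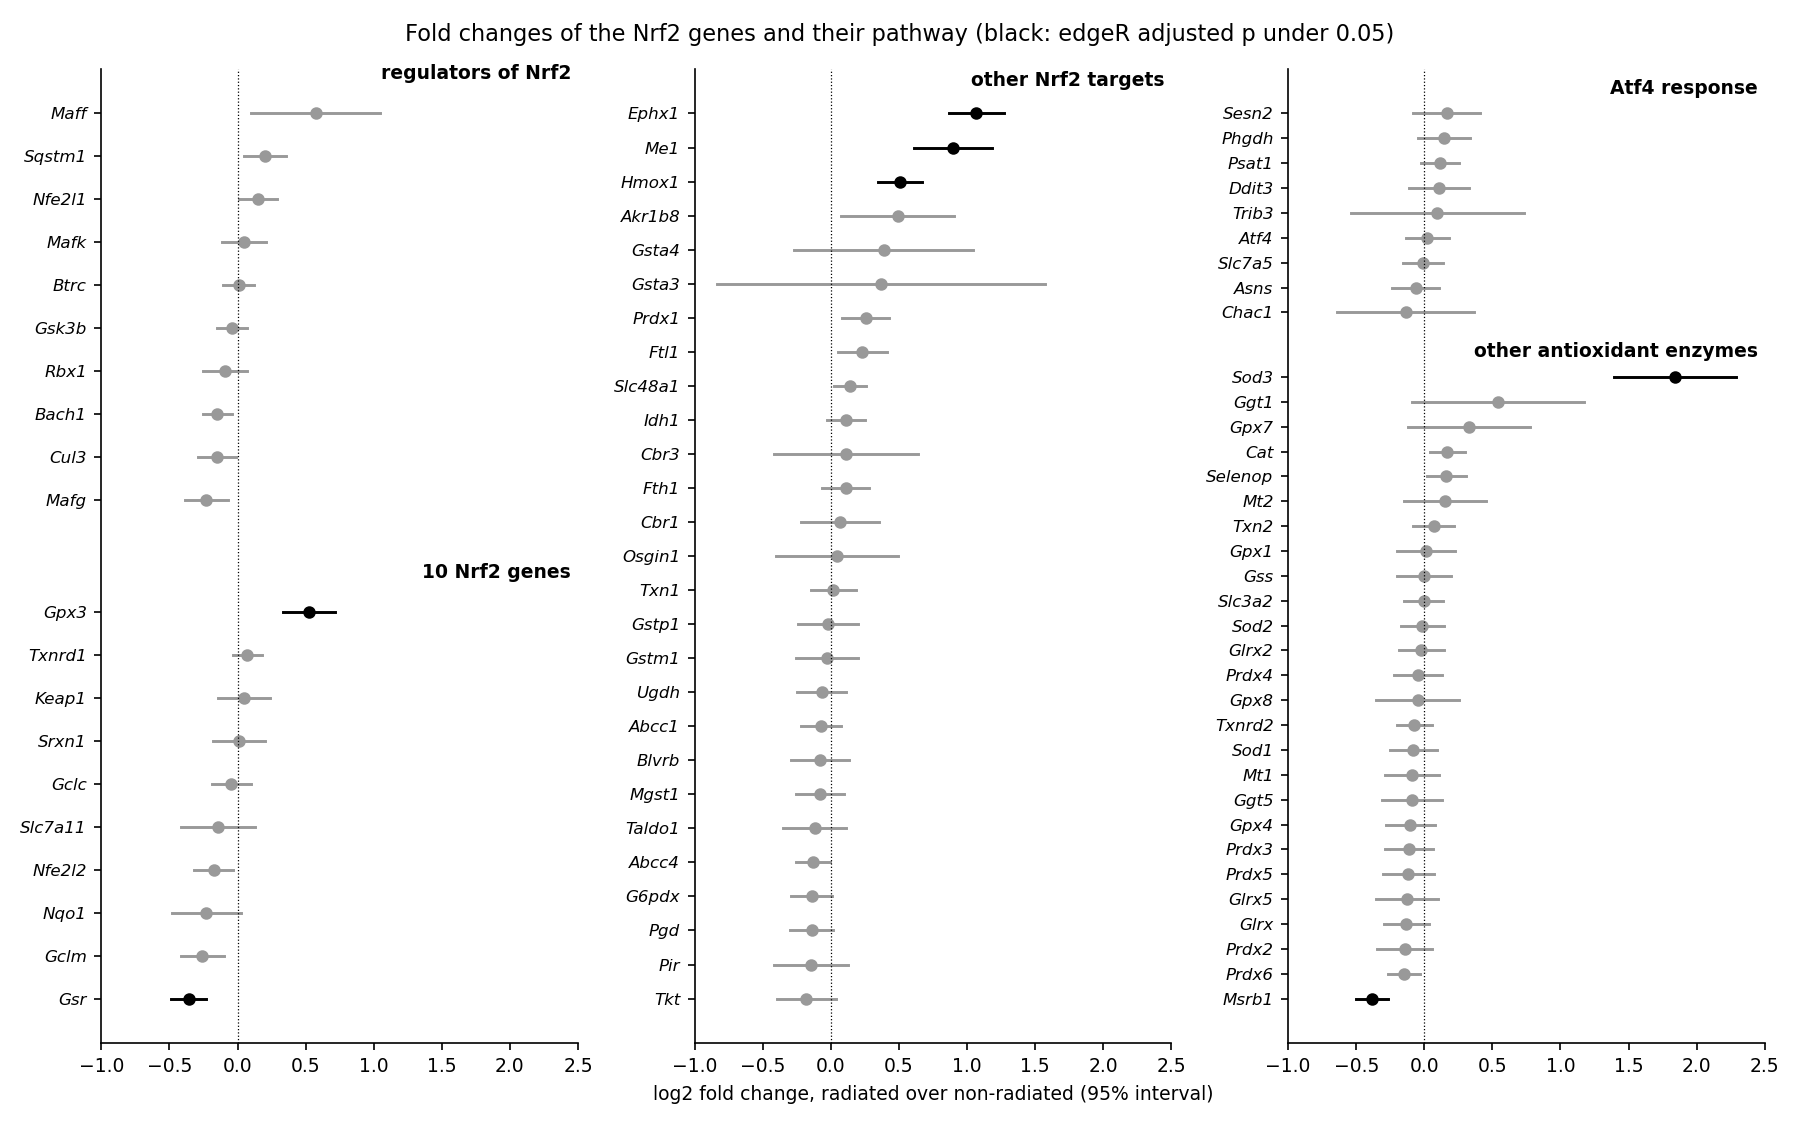
Log2 fold changes, radiated over non-radiated, with 95% intervals, for the 10 genes and 4 lists of related genes, 1 row per gene tested (horizontal axis, log2 scale; black marks an edgeR adjusted p under 0.05). Among the 10 genes Gpx3 at 0.53 and Gsr at -0.36 are black, and among the related genes Sod3 at 1.84 lies farthest from 0.

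Levels between genes were compared as CPM per kilobase of the gene length in the table. In non-radiated femur Gsr was the most abundant of the 10, at 139 ± 5.06, above 98.7% of all genes tested. Gclc (45.5 ± 2.30), Gpx3 (41.1 ± 4.93) and Gclm (40.0 ± 3.10) followed, and neighbours among these 3 overlapped between libraries. Txnrd1 (25.4 ± 0.539) and Nfe2l2 (24.2 ± 1.57) overlapped each other. Nqo1 (8.41 ± 0.979), Keap1 (7.97 ± 0.716) and Srxn1 (7.49 ± 0.483) formed a lower group that overlapped in the same way. Slc7a11 was the scarcest at 1.02 ± 0.0534, above 22.6% of the genes tested. The order depends on the gene lengths used. Slc7a11 has the longest of the 10, 13922 bases, and its mean before this division was 14.2 CPM, beside 13.1 CPM for Nqo1. For Txnrd1 the length used was 3417 bases, against 7086 exon bases in the GENCODE M21 annotation.

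In radiated femur Gpx3 stood second, at 59.2 ± 2.91 CPM per kilobase, and its lowest library (55.8) was above the highest of Gclc (46.8). Gsr remained first at 109 ± 2.25. Gclc, Gclm, Txnrd1 and Nfe2l2 then followed without overlap between neighbours, at 44.0, 33.3, 26.7 and 21.4 CPM per kilobase. Keap1, Srxn1 and Nqo1 again overlapped, at 8.25, 7.55 and 7.16, and Slc7a11 was last at 0.919 ± 0.152 (all mean ± SD, n = 3).

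**Figure D3:**
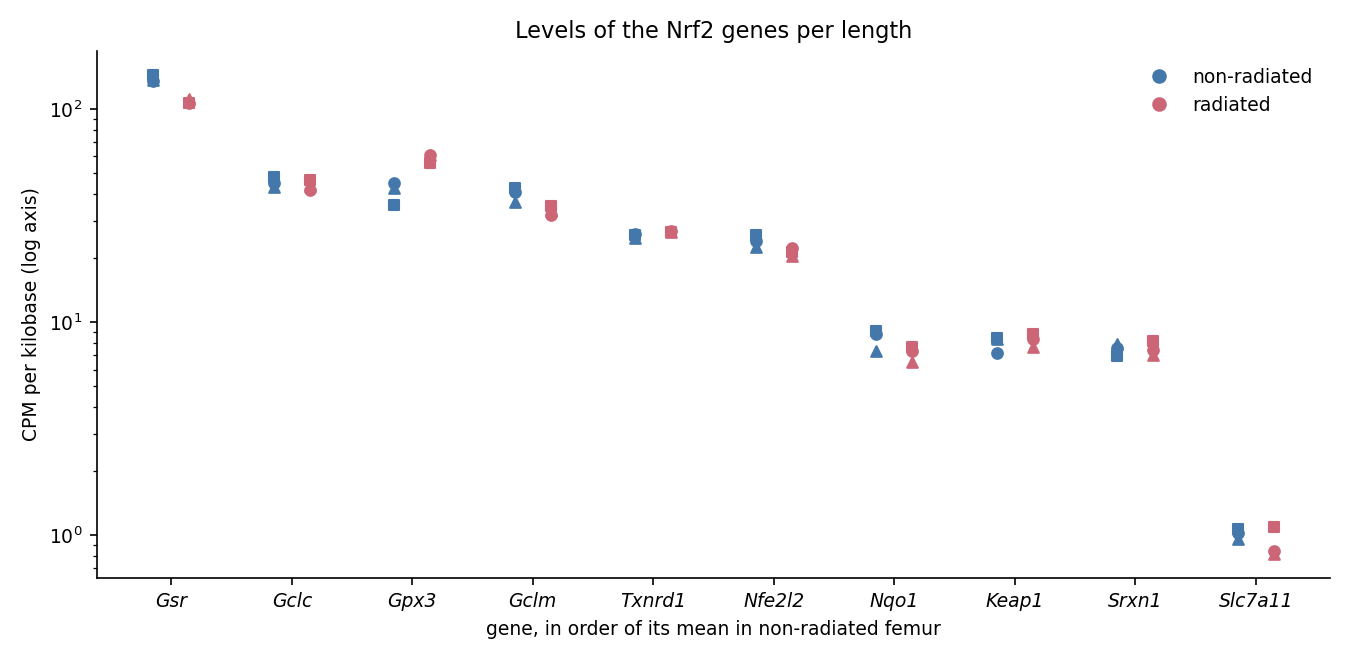
CPM per kilobase (log axis) of the 10 genes, ordered by their non-radiated mean, with 1 point per library (blue non-radiated, red radiated; circle, square and triangle are libraries 1, 2 and 3). The levels span 0.819 (Slc7a11) to 145 (Gsr), and Gpx3 passes Gclc in the radiated libraries.

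Other classical Nrf2 targets were examined as a list of 28 genes, of which 27 were tested and Gsta1 had no count in any library. Of the 27, 3 rose (11.1%) and none fell, beside 4.56% and 3.24% of all genes tested that rose and fell, and the median log2 fold change was 0.04. Ephx1, the microsomal epoxide hydrolase, was at 13.9, 14.8 and 13.1 CPM in the non-radiated and 32.1, 28.8 and 26.5 CPM in the radiated libraries and rose by 1.07 (SE 0.09, edgeR adjusted p 0.000169). Me1, the malic enzyme that makes NADPH in the cytosol and a gene of fat synthesis, was at 4.47, 3.95 and 3.87 CPM in the non-radiated and 7.45, 8.43 and 6.99 CPM in the radiated libraries and rose by 0.90 (SE 0.13, edgeR adjusted p 0.00311). Neither gene's groups overlapped, and both passed in all 15 alternatives.

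Me1 also holds the core letters, across its transcription start, at chr9:86695892-86695940 on the minus strand. The match is shown for comparison with the 4 above, and it does overlap the AP-1 letters. The other window of Me1 and that of Ephx1 did not hold the core letters, and Hmox1 had no window in the table.
Me1: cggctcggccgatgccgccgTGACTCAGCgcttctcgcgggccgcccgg

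Hmox1, haem oxygenase 1, is induced by Nrf2 and held down by the repressor Bach1. It was at 218, 228 and 214 CPM in the non-radiated and 331, 326 and 281 CPM in the radiated libraries, with a wide gap between the groups. Hmox1 rose by 0.51 (SE 0.07, edgeR adjusted p 0.00306) and passed in all 15 alternatives. Prdx1, a peroxiredoxin, stood at 0.26 in log2 (edgeR adjusted p 0.0792) and passed in 4 of 15 alternatives, among them the replicate block (adjusted p 0.0453) and the fit without non-radiated library 1 (0.33, adjusted p 0.0413). Its electron donor Txn1 was at 0.02, the ferritin heavy chain gene Fth1 at 0.11 and G6pdx, the first enzyme of the pentose phosphate pathway, at -0.14, with edgeR adjusted p of 0.926, 0.484 and 0.262. The core letters were found in the windows of 9 of the 24 genes of this list in the promoter table (37.5%), and the share was the same in the list of Atf4 response genes described below, with 3 of 8 (37.5%).

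Among 10 regulators of Nrf2 none passed edgeR's test, while 6 had an unadjusted p under 0.05 (21.5% of all genes tested had). DESeq2's Wald test called 1, Mafg, and limma-voom called none. Mafg, a small Maf partner of Nrf2, stood at -0.23 in log2 (edgeR adjusted p 0.0854). The other small Maf genes of the list went the other way, also without passing. Maff stood at 0.57 (edgeR adjusted p 0.147), on group means of only 0.965 and 1.44 CPM, and Mafk at 0.05 (0.773). Bach1, the competing repressor, stood at -0.15 (0.0926), and Sqstm1, the autophagy adaptor that sequesters Keap1, at 0.20 (0.120). Sqstm1 passed without radiated library 3 (0.27, adjusted p 0.0289). The core letters were found for 3 of the 9 regulators with a window (33.3%, beside 14% of all genes in the promoter table). These were Mafg, Mafk and Maff, the last in 1 of its 3 windows.

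Antioxidant enzymes and thiol proteins outside the classical target set formed a list of 26 genes, all tested. Of these 1 rose and 1 fell (7.69%, beside 7.80% of all genes tested), and the median log2 fold change was -0.05. Sod3, the extracellular superoxide dismutase, was at 0.933, 1.20 and 1.53 CPM in the non-radiated and 4.54, 4.76 and 3.94 CPM in the radiated libraries. It rose 3.59-fold (log2 fold change 1.84, SE 0.20, edgeR adjusted p 0.000723), on 30 to 65 counts per non-radiated library, and passed in all 15 alternatives. Msrb1, a selenoprotein that repairs oxidised methionine, was at 127, 125 and 121 CPM in the non-radiated and 94.8, 99.3 and 90.9 CPM in the radiated libraries. It fell by 0.39 in log2 (SE 0.05, edgeR adjusted p 0.00254) but did not pass when scaled by library totals alone (-0.19, adjusted p 0.737).

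Several genes of this list that did not pass are given by their intervals. The 95% interval of the log2 fold change was -0.20 to 0.22 for Gpx1, -0.28 to 0.08 for Gpx4 and -0.17 to 0.14 for Sod2, which are the cytosolic and phospholipid glutathione peroxidases and the mitochondrial superoxide dismutase. It was -0.20 to 0.20 for Gss, which completes glutathione, and -0.15 to 0.14 for Slc3a2, the partner chain of Slc7a11. For 3 genes that did not pass the test the interval lay to one side of 0. It was 0.04 to 0.30 for Cat, catalase (edgeR adjusted p 0.117), 0.02 to 0.31 for Selenop, the secreted selenoprotein that carries selenium (0.171), and -0.27 to -0.03 for the peroxiredoxin Prdx6 (0.125).

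Slc7a11 is also a target of Atf4, the factor of amino acid shortage and the integrated stress response. Of 9 Atf4 response genes none passed edgeR's test, none had an unadjusted p under 0.05, and neither DESeq2 nor limma-voom called any. Their log2 fold changes lay between -0.14 and 0.16, and Atf4 itself was at 0.02 (edgeR adjusted p 0.894).

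In bulk tissue a change in the number of cells of a type and a change of RNA per cell cannot be told apart, and the marker genes of several cell types differed between these groups. Of 15 adipocyte markers 12 rose and none fell, with a summed level of 351 to 369 CPM in the non-radiated and 589 to 789 CPM in the radiated libraries. Of 15 macrophage markers 8 rose and 2 fell, Cd163 and Timd4, with sums of 1445 to 1618 and 1829 to 2065 CPM. Of 15 neutrophil markers 3 fell and none rose, with sums of 16586 to 20760 and 13022 to 15348 CPM.

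All 15 megakaryocyte markers fell, with sums of 2140.2 to 2192 and 809.6 to 919.6 CPM, all 15 B cell markers rose, with sums of 806 to 889 and 1306 to 1607 CPM, and of 15 osteoblast markers 5 fell. Of 12 endothelial markers 2 fell, and of 14 erythroid markers 1 rose (7.14%). Of all genes tested 4.56% rose and 3.24% fell. Of 19 skeletal muscle markers tested none passed, their median log2 fold change being 2.23 and 18 being at an unadjusted p under 0.05. Each marker of bone and marrow found in the table had counts in all 6 libraries. Gpx3, Hmox1, Ephx1, Me1 and Sod3 thus rose beside adipocyte, macrophage and B cell markers, and Gsr and Msrb1 fell beside megakaryocyte, neutrophil and osteoblast markers. The part of these cells in the values of the genes was not tested.

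**Figure D4:**
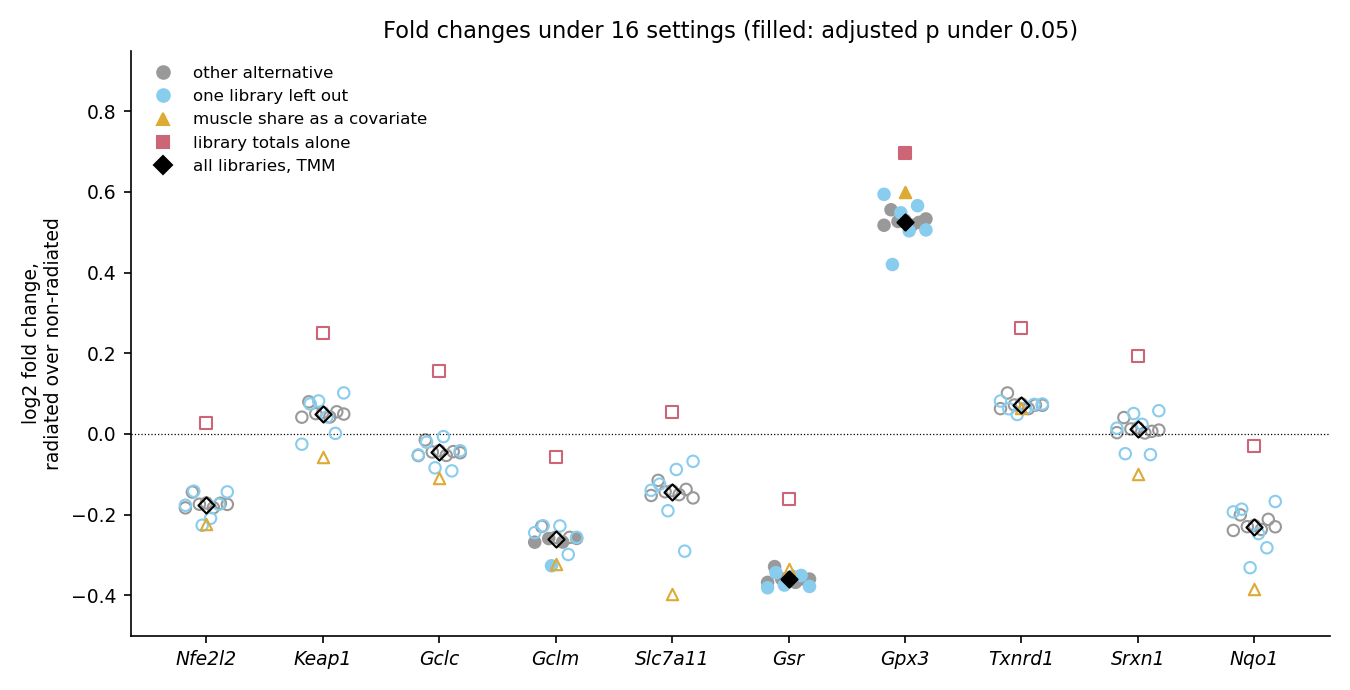
Log2 fold changes of the 10 genes, radiated over non-radiated (vertical axis), under the 16 settings tried, 1 point per setting; filled points have an adjusted p under 0.05. Gpx3 is filled in every setting, Gsr is open under library totals alone (-0.16) and with the muscle share as a covariate (-0.33), and library totals move all 10 genes upward.

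The overlap of these genes with others was small where counts could be shared. Gclm encloses the processed pseudogene Gm6061, which shares 244 exon bases with it and held 99 to 163 counts, against 5899 to 10385 for Gclm. Gsr hosts the small nucleolar RNA gene Gm24727, with 490 to 714 counts and no shared exon base. Antisense genes shared exon bases with Keap1 (510) and Gclm (296) and had at most 2 counts in a library. The smallest counts behind any of the 10 genes were those of Nqo1, 354 to 634.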

How the data were processed

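RNA was measured in 3 radiated and 3 non-radiated femur pieces with a stranded mRNA kit, per the labels' protocols. The deposited table gives whole-number counts per gene and library, per the file headers. Per the submitters' processing notes, bcl2fastq, STAR 2.5.2b, Subread, featureCounts and the build mm10 were used. Annotation and use of strand are not given in the sources used here. The authors' RPKM columns were not used, because what they were scaled to is not stated.

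Radiated and non-radiated counts were compared in edgeR 4.0.16 (R 4.3.3) with filterByExpr (minimum count 10, total 15), TMM, glmQLFit and glmQLFTest and no covariate. The Benjamini-Hochberg adjustment ran over 18757 genes. Intervals are at 95%. The fit was also run on counts simulated with the same spread for every gene and the same mean profile in every library. Those counts did not copy the differences in AY036118 and muscle between these libraries, so they do not test the fit under such differences. Replicates are libraries that nothing says came from separate mice, so p-values measure the spread between libraries. Pairs of replicates differed by 17.9 to 604 in chi-square per degree of freedom, far above sampling noise. The highest values, 604 and 518, were those of the pairs with non-radiated library 2, the library rich in AY036118. The other pairs gave 17.9 to 134. These values were computed without TMM scaling.

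Deviations from group means correlated at 0.186, 0.349 and 0.204 across genes for numbers 1, 2 and 3, and at most 0.0203 between different numbers. By this check libraries of the same number resembled each other across the groups. The fit reported here did not pair them, and a replicate block was run as an alternative. The labels do not tie numbers to mice.

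The members and lists were chosen with earlier results of these data known. All 10 members are named. From 4 related lists the called genes are named, up to 8 each, and 15 listed genes whether called or not. Mafk, Maff, Gsta1, Prdx6, Selenop, Cd163 and Timd4 are named outside that rule. Selenop, Epb42 and Adgre1 were matched by gene ID, and Ahsp was not matched. Other alternatives were DESeq2 1.42.0 size factors and Wald test, limma 3.58.1 voom, library totals with and without AY036118 and Gm26917, other filters, the muscle share as a covariate, and leaving out each library.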

Additional observations from a re-analysis of the deposited data

How the results depend on the processing

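The fit as reported called 1463 genes. Other fits, whose calls were not matched to these, called 766 with the muscle share as a covariate and 764 to 1376 without 1 library (819 without non-radiated library 2, 905 without non-radiated library 1, 764 without radiated library 1). Under library totals alone 854 genes were called higher and 146 lower, against 856 and 607, so that the share of higher calls was 85.4% against 58.5%. Of the 10 Nrf2 genes 1, Gpx3, was called under library totals alone and with the muscle covariate, and 2 to 3 without 1 library. The other Nrf2 targets called were 5 by DESeq2's Wald test and 3 to 4 without 1 library. Of the regulators 1 was called with no filter on low counts and by DESeq2's Wald test, and 0 to 1 without 1 library. Of the other antioxidant enzymes 1 was called under library totals alone. The replicate block changed the call of Gclm (log2 fold change -0.26) and Prdx1 (0.26) and no other call of a named gene.

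None of the called genes changed sign. Signs changed for genes that did not pass the test. Under library totals alone the log2 fold changes were positive for Nfe2l2 (0.026), Gclc (0.16), Slc7a11 (0.055), G6pdx (0.061), Bach1 (0.044), Sod2 (0.17), Gpx4 (0.091), Gss (0.19) and Slc3a2 (0.19). That scaling counts AY036118, and without AY036118 and Gm26917 it gave 0.016 for Sod2, 0.030 for Gss and 0.026 for Slc3a2. With the muscle covariate they were negative for Keap1 (-0.057), Srxn1 (-0.10), Txn1 (-0.10), Fth1 (-0.023) and Gpx1 (-0.084). Gss was at 0.000719 with no filter, 0.0036 for genes averaging 1 CPM or more and 0.000515 with the replicate block. Without 1 library each, the ranges were -0.025 to 0.10 for Keap1, -0.051 to 0.058 for Srxn1, -0.032 to 0.089 for Txn1, -0.059 to 0.034 for Sod2, -0.086 to 0.062 for Gpx1, -0.036 to 0.049 for Gss, -0.059 to 0.057 for Slc3a2 and -0.047 to 0.083 for Atf4. The cause of these changes was not tested. The ratio of Gclm to Gclc differed by -0.24 to -0.19 and that of Nfe2l2 to Keap1 by -0.31 to -0.15 (log2) without 1 library. These ratios, and leaving out a library from them, were chosen after seeing the data.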
